A study of Mus musculus with 12 samples.

Results

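Primed enhancer regions were defined here as stretches of the genome that carried H3K4me1 in every library, lay away from genes' ends, and had no peak of H3K27ac or H3K4me3. Overlapping H3K4me1 peaks of 4 libraries were merged into 139885 regions, of which 46121 (33.0%) had a peak in all 4 libraries and 33220 of those lay over 1 kb from both ends of every protein-coding gene. H3K4me3 peaks overlapped 16626 of these and 16594 had none. Of the 16594, 9746 also overlapped no H3K27ac peak in any library, and these 9746 regions (6.97% of all merged H3K4me1 regions) are called primed below. The same rule with an H3K27ac peak in all 4 libraries gave 1595 regions, called constant active, and 5253 regions had H3K27ac in 1 to 3 libraries. All of these lists chose the members, so the marks' presence or absence there is a description and not a result.

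The cells were cKit+ bone marrow cells, sorted on a BD FACSAria II from C57BL/6 mice, either transgenic for Phf6R274X (Tg) or wild type (WT). Each genotype had 2 libraries for each mark, 12 in all, and the labels name no promoter for the transgene and do not say whether replicates came from separate animals. The p-values below therefore measure the spread between these libraries, which may be technical. A low-input kit was used for the ChIP-seq, in which DNA bound by a marked histone is precipitated and sequenced. The deposited files are peak lists with no read counts, so depth is unknown, and a region without H3K27ac is one where the authors' caller listed no peak.

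Enhancers are stretches of DNA that bind transcription factors and raise transcription of genes that may lie far away. H3K4me1, monomethylation of lysine 4 of histone H3, is laid down by the methyltransferases MLL3 and MLL4 around enhancers, H3K27ac is added by the acetyltransferases p300 and CBP at enhancers and promoters in use, and H3K4me3 marks promoters. An enhancer with H3K4me1 but without H3K27ac is commonly called primed, since such sites in blood progenitors include enhancers that gain H3K27ac later, in a descendant lineage or after a stimulus. PHF6 is a chromatin-binding protein with PHD-type zinc fingers whose gene is mutated in leukaemia.

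The sorted population was checked at marker genes. Within 1 kb of the gene's ends, Kit, Spi1, Cebpa, Myb, Runx1 and Tal1 had H3K27ac and H3K4me3 peaks in all 4 libraries of each mark, while Cd34 and Gata2 had H3K4me3 in 4 and H3K27ac in 0. Of the markers of other cells, Cd3e, Cd8a, Ncr1, Klrb1c, Marco and Cdh5 had neither mark in any library. Cd79a of B cells and Camp of granulocytes had both marks in all 4 libraries, and Adgre1 of macrophages had H3K27ac in 2 of 4. Marks at genes of other cell types were thus present, and their part in the results below was not tested. In bulk samples fewer cells with a mark and less of the mark per cell cannot be told apart. Inside all 4 H3K4me3 lists the peak names carry the genotype opposite to the label. H3K4me3 entered only as an exclusion over all 4 lists together, so this does not alter the members.

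Some primed regions hold an annotated start of a transcript, and their sequence can be shown from the RefSeq promoter windows of GRCm38.p6 (the build called mm10), which run from 250 bases before to 50 bases after a start. Of 32851 windows, 171 from 156 genes overlapped 154 primed regions, and 137 of the 171 belong to long non-coding RNAs. The 34 windows of protein-coding genes are internal starts, because the rule used the outer ends of genes. The 5 windows below were picked for display after their letters had been seen, to show different motifs inside primed regions. They lie at chr2:90479125-90479424 on the minus strand (Ptprj), chr11:117135758-117136057 on the plus strand (Sec14l1), chr2:93452623-93452922 on the minus strand (Cd82), chr17:53583876-53584175 on the plus strand (Kat2b) and chr4:32571613-32571912 on the minus strand (Bach2os). Each is printed 5′ to 3′ on the strand of its gene, and capitals mark any of the motifs searched, on either strand.
Ptprj: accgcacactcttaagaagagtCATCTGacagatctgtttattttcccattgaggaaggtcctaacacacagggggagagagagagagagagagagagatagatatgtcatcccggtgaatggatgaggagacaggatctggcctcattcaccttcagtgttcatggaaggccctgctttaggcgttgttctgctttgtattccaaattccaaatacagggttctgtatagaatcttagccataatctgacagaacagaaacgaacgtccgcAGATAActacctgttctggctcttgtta
Sec14l1: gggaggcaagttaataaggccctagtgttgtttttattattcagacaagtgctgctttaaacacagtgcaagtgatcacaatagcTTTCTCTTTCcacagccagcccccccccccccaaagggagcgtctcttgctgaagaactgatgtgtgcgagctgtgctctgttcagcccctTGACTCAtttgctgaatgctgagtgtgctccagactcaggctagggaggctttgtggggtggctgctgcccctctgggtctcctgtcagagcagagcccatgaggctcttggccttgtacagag
Cd82: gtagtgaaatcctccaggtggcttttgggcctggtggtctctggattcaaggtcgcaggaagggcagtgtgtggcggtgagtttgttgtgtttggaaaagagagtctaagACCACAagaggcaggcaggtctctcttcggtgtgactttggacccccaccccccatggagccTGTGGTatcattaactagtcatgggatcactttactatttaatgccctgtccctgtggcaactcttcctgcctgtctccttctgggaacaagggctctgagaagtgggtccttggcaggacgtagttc
Kat2b: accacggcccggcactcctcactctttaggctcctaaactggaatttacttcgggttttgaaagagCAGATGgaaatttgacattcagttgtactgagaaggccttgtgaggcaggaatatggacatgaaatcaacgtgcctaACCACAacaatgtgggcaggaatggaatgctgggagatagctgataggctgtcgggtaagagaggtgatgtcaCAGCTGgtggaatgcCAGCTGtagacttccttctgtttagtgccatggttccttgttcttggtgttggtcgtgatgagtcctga
Bach2os: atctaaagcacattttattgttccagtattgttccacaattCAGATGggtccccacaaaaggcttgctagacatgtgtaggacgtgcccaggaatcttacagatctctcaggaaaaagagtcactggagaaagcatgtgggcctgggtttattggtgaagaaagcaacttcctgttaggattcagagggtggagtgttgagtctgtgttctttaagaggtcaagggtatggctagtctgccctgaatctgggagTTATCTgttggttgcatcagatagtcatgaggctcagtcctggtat

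Ptprj encodes a receptor tyrosine phosphatase, and its window holds an E-box and a GATA motif inside a primed region covered by H3K4me1 peaks over 1974 and 2747 bp in Tg and 1863 and 3230 bp in WT. Sec14l1 encodes a member of the SEC14-like family, and its window holds an IRF and an AP-1 motif in a region covered over 1388 and 1947 bp in Tg and 1111 and 2192 bp in WT. Replicate 2 had the longer coverage in both genotypes at both regions, and the genotypes overlapped. The Cd82 window, with RUNX motifs, lies in the widest primed region of all, described below. Kat2b encodes a histone acetyltransferase, and the region of its window, with E-boxes and a RUNX motif, was covered over 983 and 1436 bp in Tg and 593 and 1071 bp in WT. Bach2os is a non-coding RNA on the opposite strand of Bach2, a repressor of B cell maturation, and its region was covered over 870 and 2712 bp in Tg and 1472 and 3007 bp in WT. The nearest H3K27ac peak lay 1886 bp from the Ptprj region, 17339 bp from that of Sec14l1, 945 bp from that of Cd82, 1773 bp from that of Kat2b and 2573 bp from that of Bach2os.

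Motifs were counted in the 171 windows on both strands, beside all 32851 windows of the same 300 bp length. The RUNX motif TGTGGT was in 52 of 171 (30.4%) against 16.8% of all windows, and the GATA motif AGATAA in 31 (18.1%) against 11.2%. Runx1 and Gata2, progenitor regulators, bind motifs of these kinds. The E-box letters CAGCTG or CAGATG were in 39.2% against 30.6%, the PU.1 type motif GAGGAAGT in 6.43% against 3.20%, and AP-1 (TGAGTCA, or TGACTCA, its reverse complement) in 12 of 171 against 1709 of 32851. C/EBP (TTGCGCAA or TTGCACAA) was in 1.17% against 1.19%, the IRF motif in 3.51% against 3.44%, and the ETS form CCGGAAGT, which shares GGAAGT with the PU.1 form, in 0 against 3.89%. The CTCF motif was in 1 window. In the windows of constant active regions, 39 in number, RUNX was in 8 (20.5%), GATA in 4 (10.3%) and AP-1 in 7 (17.9%). The windows in primed regions differ from all windows in make-up, since 19.9% against 64.7% are of protein-coding genes, the median GC content is 49.7% against 52.7%, and the median observed to expected CpG ratio is 0.22 against 0.38. The part of that make-up in the motif shares was not tested. In addition, 11 annotated microRNA hairpins overlap primed regions, among them Mir148b, Mir138-2 and Mir5124a.

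The exclusion by H3K27ac was uneven over the libraries, as the plot of combinations shows. Of the 16594 regions, 13777 (83.0%) and 12586 (75.8%) had no H3K27ac peak in Tg replicates 1 and 2, and 11045 (66.6%) and 13393 (80.7%) had none in WT replicates 1 and 2. After no library and all 4 libraries, the most frequent state was a peak in WT replicate 1 alone, with 1491 regions, against 259 in Tg replicate 1 alone, 609 in Tg replicate 2 alone and 128 in WT replicate 2 alone. WT replicate 1 also had the longest H3K27ac list, with 42124 peaks against 33179 and 38839 in Tg and 31257 in WT replicate 2. Leaving that library out gave 11237 primed regions. The H3K4me1 list of WT replicate 1, the shortest of its mark with 100316 peaks, mattered more, since leaving it out gave 16780.

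**Figure D1:**
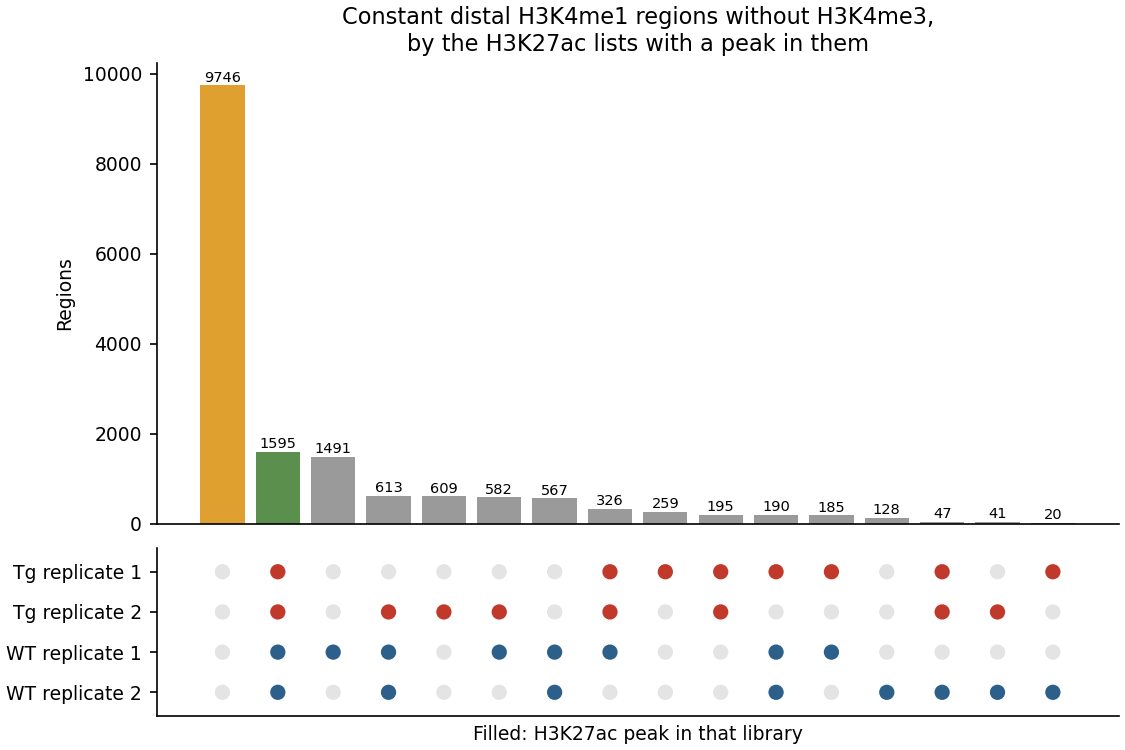
Number of constant distal H3K4me1 regions without H3K4me3 (y axis, regions) for each combination of H3K27ac lists with a peak in them, with filled dots below naming the libraries. The 9746 regions with no H3K27ac (orange) outnumber the 1595 with it in all 4 libraries (green), and 1491 have it in WT replicate 1 alone.

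Primed regions were narrower and carried weaker H3K4me1 than constant active ones in each of the 4 H3K4me1 libraries. Their median width was 1365 bp (quartiles 1012 and 1856, range 315 to 8935), against 1801 bp with H3K27ac in 1 to 3 libraries, 2090 bp for constant active regions and 671 bp for all merged regions. Together they span 14.9 Mb. The median length covered by H3K4me1 peaks was 687 and 1065 bp in Tg and 568 and 1062.5 bp in WT at primed regions, against 1301 and 1882 bp in Tg and 1090 and 1788 bp in WT at constant active regions. The ratio of these medians was 0.528 and 0.566 in Tg and 0.521 and 0.594 in WT (0.552 ± 0.0342, SD, n = 4 libraries). Replicate 1 had the shorter coverage in both genotypes and in both classes. Part of the lower coverage goes with width: among regions of 500 to 1500 bp the ratio was 0.853. A wider region has more room to overlap an H3K27ac peak, so the rule itself favours narrow primed regions. How much of the differences in width and coverage follows from that was not tested.

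The strength of a region was ranked within each list, by the percentile of the −log10 q-value of its strongest peak, because the authors' −log10 q-values depend on depth. The median percentile of primed regions was 54.4 and 63.9 in Tg and 48.5 and 64.9 in WT, against 82.4 and 87.3 in Tg and 76.0 and 86.4 in WT for constant active regions, a difference of −25.1 ± 3.13 percentile points (SD, n = 4). At 500 to 1500 bp the difference was −21.0, and with peaks of −log10 q of at least 5 in every list it was −12.3. The authors' fold enrichment at the strongest peak of a primed region had medians of 3.81 and 4.68 in Tg and 3.66 and 4.46 in WT. Most primed regions were a single peak, in 70.0% and 75.9% of them in Tg and 73.9% and 73.5% in WT. The strongest summits of the 4 libraries lay within a median of 441 bp of each other in primed regions, and within 300 bp in 3012 of them (30.9%), against a median of 564 bp and 29.6% in constant active regions.

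**Figure D2:**
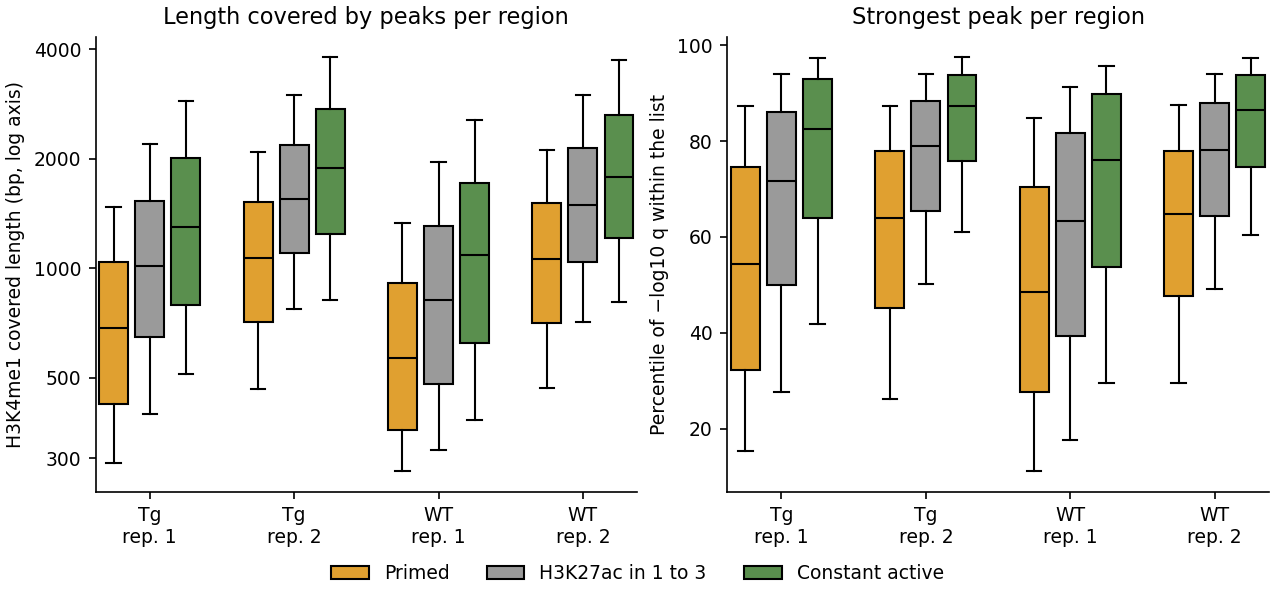
H3K4me1 in 3 classes of constant distal regions by library: length covered by peaks (left, bp, log axis) and percentile of −log10 q of the strongest peak within its list (right). Boxes span the quartiles with the median as a line and whiskers run to the 10th and 90th percentile of regions; primed regions (orange) have the lowest median in each library and constant active regions (green) the highest.

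Some regions with strong H3K4me1 also had no H3K27ac. When the 16594 regions were put into 10 equal classes by strength within a library, the weakest class was primed for 77.3% and 85.8% in Tg and 72.8% and 83.6% in WT. In the strongest class the primed share was 30.8% and 24.0% in Tg and 33.9% and 26.1% in WT, close to the constant active share of 26.4% and 30.3% in Tg and 25.1% and 29.2% in WT. The remainder had H3K27ac in 1 to 3 libraries. By percentile within each deposited list, 708 and 629 primed regions in Tg and 516 and 630 in WT reached the top 10% of peaks. That is 7.26% and 6.45% of primed regions in Tg and 5.29% and 6.46% in WT. Of constant active regions, 32.4% and 40.9% in Tg and 24.6% and 37.1% in WT did.

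**Figure D3:**
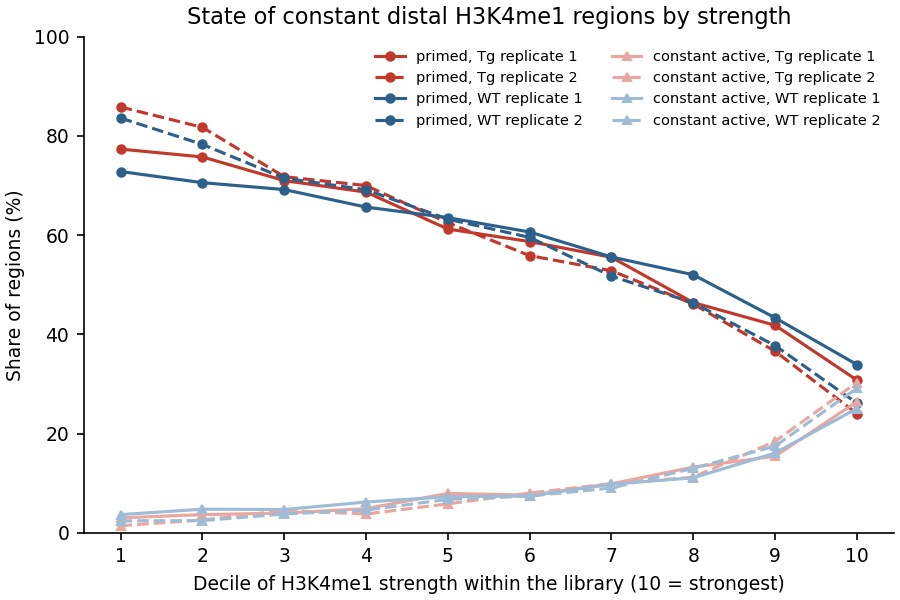
Share of constant distal H3K4me1 regions that were primed (dark lines, circles) or constant active (pale lines, triangles), in %, by decile of H3K4me1 strength within each library (x axis, 10 is the strongest). In all 4 libraries the primed share is highest in decile 1, 72.8% to 85.8%, and lowest in decile 10, 24.0% to 33.9%.

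The strongest primed region, by its lowest percentile over the 4 libraries, lies in Ampd3, which encodes an AMP deaminase of red cells, 1906 bp from an end of Rnf141 (chromosome 7, 110795540 to 110797563). It was covered over 1345 and 1715 bp in Tg and 1476 and 2024 bp in WT, ranked at or above the 98.8th percentile in each list, and the nearest H3K27ac peak was 17.3 kb away. The next strongest lie in Gse1, a corepressor-associated protein (chromosome 8, 120473871 to 120477440), in the zinc finger gene Zfp523 (chromosome 17, 28182135 to 28186965) and in Lig1, the replicative DNA ligase (chromosome 7, 13302113 to 13304336). The Lig1 region ranked at the 99.7th and 99.6th percentile in Tg and the 98.1st and 95.4th in WT, with H3K27ac 22.4 kb away. The fifth lies 28.7 kb from the immediate early gene Ier5 (chromosome 1, 155064111 to 155067702) and the sixth 5.54 kb from the proton pump gene Atp6v0a1 (chromosome 11, 100999308 to 101003885). H3K27ac was nearer to the rest, 8.88 kb from the Gse1 region, 0.254 kb from that of Zfp523, 2.85 kb from that near Ier5 and 3.71 kb from that near Atp6v0a1. At each of these 6 regions, every library ranked above the 94th percentile, so they are primed in the sense of the rule without being weak.

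The widest primed region, 8935 bp, lies in Cd82 (chromosome 2, 93446594 to 93455528), a tetraspanin of stem cells and progenitors, and was covered over 2783 and 5653 bp in Tg and 7511 and 8458 bp in WT. The next is in Kit, the stem cell factor receptor by which the cells were sorted, over 8577 bp (chromosome 5, 75594079 to 75602655). It was covered over 2081 and 6443 bp in Tg and 3764 and 7163 bp in WT, so the genotypes overlapped. Clcn3, a chloride and proton exchanger (chromosome 8, 60967901 to 60976273), had 1980 and 3490 bp in Tg and 5860 and 8373 bp in WT. Zmiz1, a transcriptional coregulator (chromosome 14, 25491457 to 25498895), had 2619 and 3639 bp in Tg and 5122 and 6453 bp in WT. Coverage was lower in both Tg libraries than in both WT libraries at Cd82, Clcn3 and Zmiz1, none of which passed the test given below.

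Primed regions lay mostly within genes. A protein-coding gene overlapped 6207 of them (63.7%, 95% Wilson interval 62.7 to 64.6, which covers counting error only), against 787 of 1595 constant active regions (49.3%, 46.9 to 51.8) and 63.9% of all merged regions. The median distance to the nearest gene end was 17.7 kb, against 22.9 kb for constant active regions, and 452 primed regions lay over 100 kb from any protein-coding gene. The nearest H3K27ac peak of any library was at a median of 5.13 kb (quartiles 2.17 and 12.4), within 1 kb for 1015 regions (10.4%) and over 50 kb away for 385. The X chromosome held 92 (0.944%), against 1.90% of all merged regions but 0.863% of those with H3K4me1 in all 4 libraries.

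The regions farthest from H3K27ac lie in genes known for roles in neurons: Auts2 at 1374 kb (chromosome 5, 132466212 to 132468659), Sema6d at 702 kb and Epha4 at 683 kb, followed by a region near Rassf9 at 656 kb. The Auts2 region was covered over 987 and 2358 bp in Tg and 895 and 1985 bp in WT and ranked above the 70th percentile in each list. The region farthest from a protein-coding gene lies 1101 kb from Cited2 (chromosome 10, 16620433 to 16621809), and the next 3 lie among variable segments of the immunoglobulin heavy chain locus Igh. That locus (chromosome 12, 113256204 to 116009954) held 243 merged H3K4me1 regions, of which 18 were primed, 21 had H3K27ac in 1 to 3 libraries and 0 were constant active. H3K4me1 peaks covered 154 and 188 kb of Igh in Tg and 124 and 255 kb in WT. The kappa light chain locus, of 3.17 Mb, held 4 H3K4me1 regions and 0 primed ones. The T cell receptor loci Trb, Trg and Tra held 5, 2 and 1.

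Many primed regions came in runs. With gaps of at most 10 kb, 3984 regions (40.9%) formed 1653 runs, and the longest had 10 regions over 42.5 kb of Hectd4, a predicted ubiquitin ligase (chromosome 5, 121224595 to 121267136). Ppp3ca, the calcineurin catalytic subunit, held a run of 9 over 45.7 kb, and Plac8 and Coq2 shared another of 9. Runs of 7 lay in Srgap2, a regulator of actin, and Ppard, a fatty acid receptor, with 0 bp of H3K27ac peaks between the regions, and in Dyrk1a, Pip4k2a and Uaca. At the edges of the rule, 36 regions lay within 100 bp of the 1 kb gene end limit and 45 had H3K27ac within 100 bp. The nearest kept lay 1009, 1018 and 1020 bp from ends of Dnajb2, Ubxn8 and Vps13d, and the nearest left out lay 996, 987 and 983 bp from ends of Atp6v1g3, Ms4a20 and Ap4s1. H3K27ac lay 1, 9 and 9 bp from kept regions near Zswim6, Apod and Map4k4, and overlapped regions left out near P2ry6, Mepe and Gclc by 4, 6 and 27 bp.

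The genes next to primed regions were mostly marked as in use at their own ends. Of the 9294 primed regions with a protein-coding gene within 100 kb, 68.5% had as nearest gene one with H3K27ac at its ends in all 4 libraries, against 68.5% of constant active regions. Over all protein-coding genes the share was 43.3%. H3K4me3 in all 4 libraries was at the ends of the nearest gene for 85.3% of primed and 80.3% of constant active regions, against 58.8% of all genes. Counted once per nearest gene, H3K27ac in all 4 libraries was at 64.7% of the genes next to primed regions and 67.1% of those next to constant active regions. These differences were not tested.

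Primed regions lay within 50 kb of 8972 of 21883 protein-coding genes (41.0%), and 10.1% of genes had a constant active region in that range. The genes with the most were Gse1 with 19, then Foxp1, a forkhead factor needed in B cell development, Ppp3ca and Rere, a corepressor, with 18 each. Map3k5, Pde4d and Sgms1 had 17 each, Srgap2 had 16, and Baz2b and Cers6 had 15. These are long genes, and most of the regions were inside them, all 18 of them in Foxp1. The summed H3K4me1 length over the Foxp1 regions was 15.3 and 20.6 kb in Tg and 12.4 and 19.6 kb in WT. At Gse1 it was 15.7 and 22.3 kb in Tg and 21.4 and 27.7 kb in WT.

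Genes were grouped into 21 lists by lineage and function, and the share of each list with a primed region within 50 kb was set beside the 41.0% of all genes. The share was above that in 15 of 21 lists. Cytokine and chemokine receptors had the highest share, 21 of 24 genes (87.5%), followed by myeloid regulators with 16 of 20, dendritic cell and MHC class II genes with 11 of 14 (78.6%), megakaryocyte genes with 15 of 20 (75.0%) and immediate early genes with 15 of 21 (71.4%). Neuronal genes had 3 of 18 (16.7%), liver and gut genes 6 of 16 (37.5%), and the Hoxa and Hoxb clusters 0 of 21. Blood lists were below the share of all genes too, with mature granulocyte genes at 7 of 18 (38.9%) and mast cell and basophil genes at 5 of 13 (38.5%). Stroma and endothelium genes had 7 of 18 (38.9%). Around Hoxa and Hoxb, 70 H3K4me1 regions were merged, 21 were in all 4 libraries, 3 of those were distal, and all 3 carried H3K4me3. Genes of a list that lie side by side share regions, and longer genes have more room for them.

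**Figure D4:**
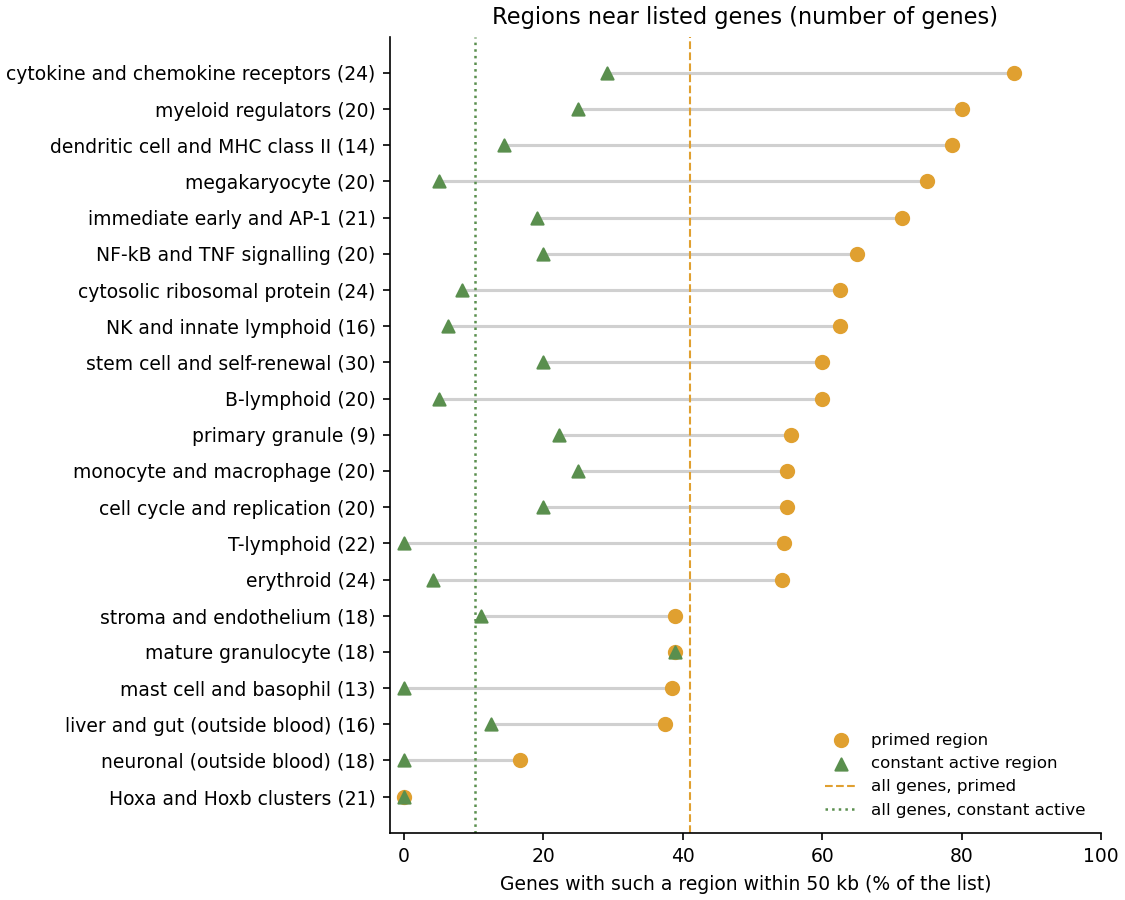
Share of genes with a primed region (orange circles) or a constant active region (green triangles) within 50 kb, in % of each list, with the number of genes in brackets and dashed lines for all protein-coding genes. Cytokine receptors stand at 87.5% for primed regions and the Hox clusters at 0%; T-lymphoid and megakaryocyte genes have 0% and 5% for constant active regions.

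Stem cell regulators had primed regions at 18 of 30 genes. Runx1, a master regulator of blood formation, had 12, of which 10 were inside the gene, and Etv6, an ETS family repressor needed by stem cells, had 9. The strongest at Runx1 (chromosome 16, 92807339 to 92813122) was covered over 3961 and 5632 bp in Tg and 3804 and 5616 bp in WT, with H3K27ac 0.265 kb away. Kit had 6, with a summed 6.05 and 11.3 kb in Tg and 6.16 and 11.6 kb in WT, and Erg, another ETS factor, had 5. The values at Runx1 and Kit followed the replicate number more closely than the genotype. Gata2, required for stem cell survival, had 3 primed and 0 constant active regions, covered over 2.41 and 3.29 kb in Tg and 2.48 and 4.56 kb in WT.

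Among myeloid regulators, Runx2 had 11 primed regions, 10 of them inside the gene, and Gfi1, a repressor that directs granulocyte fate, and Zeb2, a repressor needed for dendritic and monocyte lineages, had 4 each. The Gfi1 regions were covered over 2.93 and 6.71 kb in Tg and 1.62 and 5.11 kb in WT. Of the receptors, Tnfrsf1b (a TNF receptor) had 7, and Il10ra, Il21r and Il4ra (receptors for interleukins 10, 21 and 4) had 5 each. The Il4ra regions were covered over 6.08 and 9.44 kb in Tg and 3.74 and 8.68 kb in WT, and Il21r and Il4ra share regions as neighbours. Maff, a small MAF factor, had 6, and Fos, the AP-1 subunit, had 4, although 20 of the 21 immediate early genes had H3K27ac at their own ends in all 4 libraries. Fos regions were covered over 3.54 and 3.68 kb in Tg and 2.43 and 4.05 kb in WT.

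Genes of descendant lineages also had primed regions nearby, several of them with no H3K27ac at their own ends. Itgb3, the platelet integrin beta chain, had 7 (5.24 and 7.65 kb in Tg, 5.18 and 7.42 kb in WT), while Gp9 had 5 and Gp1ba 4, both encoding subunits of the platelet receptor for von Willebrand factor. Gp9 and Gp1ba had H3K27ac at their ends in 0 of 4 libraries and Itgb3 in 4. The erythroid gene Tmcc2 had 6 and Xpo7, a nuclear export factor of red cell maturation, had 4, both with H3K27ac at their ends in 0 libraries. Thy1, a T cell surface glycoprotein, had 4, and Tcf7, the T cell factor that starts T-lineage commitment, Ctla4, an inhibitory receptor, and Il2ra, an interleukin 2 receptor chain, had 3 each. The Tcf7 regions were covered over 5.01 and 5.61 kb in Tg and 2.97 and 6.09 kb in WT, and Tcf7 had H3K4me3 at its ends in 4 libraries and H3K27ac in 0. Of the 22 T-lymphoid genes, 7, Cd3e and Cd8a among them, had neither mark at their ends in any library, while 3 (Cd3d, Cd5 and Satb1) had H3K27ac and 8 had H3K4me3 there in all 4. Bach2 and Cd22 of the B lineage had 3 each, and Zbtb16, the factor of innate lymphoid cells, had 4.

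A further count asked how often the constant distal regions near a list lacked H3K27ac. Over all 16594 regions it was 58.7%. Near T-lymphoid genes 22 of 26 regions were primed (84.6%, 95% Wilson interval 66.5 to 93.9) and 0 were constant active, and near mature granulocyte genes 11 of 35 were (31.4%, 18.6 to 48.0). Both counts are small and depend on the settings: within 100 kb the shares were 60.0% and 50.8%, and with peaks of −log10 q of at least 5 in every list the T-lymphoid share was 37.5%, below the 49.4% of all regions at that setting, with 13.6% at mature granulocyte genes. Ribosomal protein genes had 44 of 59 (74.6%), NF-kB genes 19 of 45 (42.2%), and stem cell genes 59 of 108 (54.6%). The ribosomal protein count rests on a few neighbourhoods, with 11 regions near Rpl6, 6 each near Rpl10a and Rpl5, and 5 near Rps14. Only 15 of the 24 ribosomal protein genes had any, and with strong peaks the share was 62.5%.

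The design asks whether the marks differ between Tg and WT cells. In a limma fit on log2(covered length + 500 bp) over 92031 H3K4me1 regions, 0 of the 9746 primed regions passed an adjusted p of 0.05, where 0 of all 92031 (0%) did. Unadjusted p-values under 0.05 were found for 525 primed regions (5.39%), 220 higher and 305 lower in Tg, against 8.01% of all regions. The 92031 regions needed a peak in only 2 libraries, whereas every primed region has one in all 4 by the rule. In a fit of the 46121 regions present in all 4 libraries the order turned, with 1040 primed regions (10.7%), 537 higher and 503 lower, against 6.32% of all. In the fit over 92031 regions the median log2 change was 0.04 at primed regions, 0.07 at constant active ones and 0.01 over all regions. The smallest adjusted p among primed regions was 0.525 in that limma fit. In the limma fit of the 46121 regions it was 0.00783, and 2 primed regions passed. The added 500 bp understates changes of short regions.

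**Figure D5:**
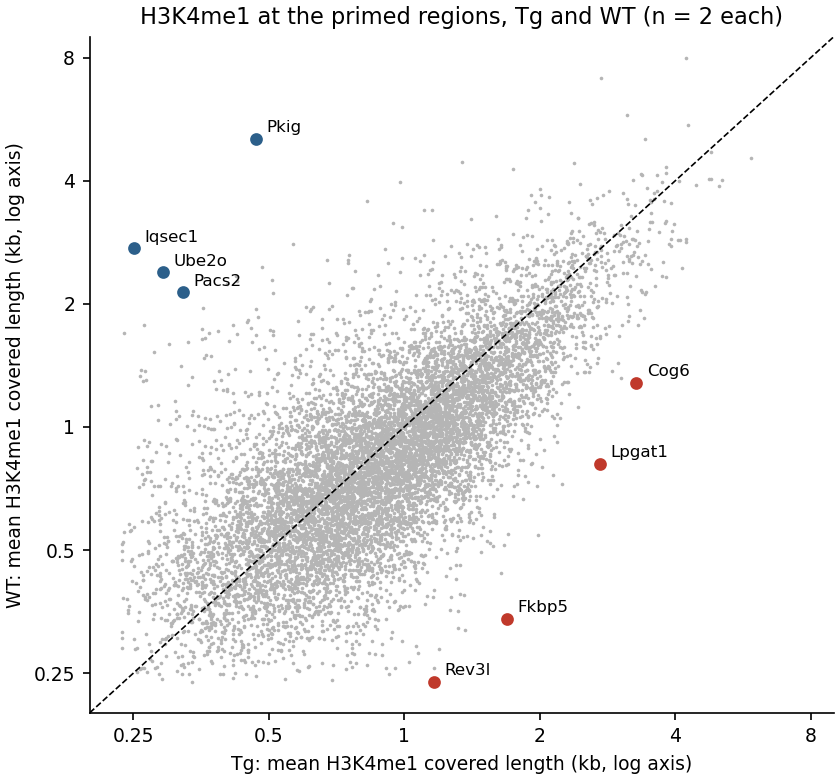
Mean H3K4me1 covered length at each of the 9746 primed regions in Tg (x axis, kb, log axis) and WT (y axis, kb, log axis), n = 2 libraries each, with the line of equal values dashed. Named points are the 4 regions with the largest log2 change in each direction (red higher in Tg, blue lower in Tg). They run from 1.44 at Fkbp5 to −2.55 at Pkig, and none passed in the fit over 92031 regions.

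The largest differences were at a few regions of 2 to 7 kb where Tg libraries had only short peaks. In Pkig, an inhibitor of protein kinase A (chromosome 2, 163688104 to 163694770), peaks covered 328 and 608 bp in Tg and 4455 and 5690 bp in WT, which is −2.55 ± 0.20 on the log2 scale (± SE; adjusted p = 0.525 in limma). In Iqsec1, an exchange factor for ARF GTPases (chromosome 6, 90704988 to 90708339), they covered 266 and 235 bp in Tg and 2115 and 3352 bp in WT (−2.12 ± 0.27, adjusted p = 0.525). The groups did not overlap at either. In the fit of regions present in all 4 libraries, these were the 2 that passed, with adjusted p of 0.00783 at Pkig and 0.0468 at Iqsec1. In Ube2o, a ubiquitin ligase of red cell maturation (chromosome 11, 116548593 to 116551534), peaks covered 324 and 258 bp in Tg and 2077 and 2711 bp in WT, and in Pacs2, a sorting protein (chromosome 12, 113040455 to 113043124), 255 and 390 bp in Tg and 2298 and 1975 bp in WT.

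In the other direction the largest value was in Fkbp5, a co-chaperone of the glucocorticoid receptor (chromosome 17, 28454372 to 28456437), with 1640 and 1736 bp in Tg and 272 and 408 bp in WT (1.44 ± 0.28, adjusted p = 0.525). Lpgat1, a lysophospholipid acyltransferase (chromosome 1, 191736258 to 191739516), had 2709 and 2725 bp in Tg and 503 and 1124 bp in WT, and Rev3l, the catalytic subunit of a translesion DNA polymerase (chromosome 10, 39795727 to 39797087), had 1361 and 969 bp in Tg and 245 and 232 bp in WT. The groups did not overlap at these 3 regions. The last of the 4, nearest Cog6, had 3045 and 3515 bp in Tg and 303 and 2264 bp in WT, and its WT libraries differed widely.

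By list, erythroid and megakaryocyte genes had the lowest median changes at their primed regions. Of 28 primed regions near erythroid genes 9 had a change above 0 and the median was −0.21, with 6 at unadjusted p under 0.05 and 0 passing. Of 36 near megakaryocyte genes 13 were above 0, with a median of −0.14. At T-lymphoid genes 17 of 22 were above 0, with a median of 0.21 and 0 at unadjusted p under 0.05. Over all regions tested 51.2% were above 0 and over primed regions 55.1%. A region between Gp9 and its neighbours (chromosome 6, 87799883 to 87803828) was covered over 318 and 1891 bp in Tg and 2978 and 3803 bp in WT. A region in Tmcc2 (chromosome 1, 132373181 to 132376103) was covered over 258 and 1242 bp in Tg and 2571 and 2548 bp in WT, and one in Zeb2 (chromosome 2, 45038942 to 45043412) over 620 and 1029 bp in Tg and 3192 and 3940 bp in WT. The groups did not overlap at these 3 regions, which were chosen after their values were seen, and none of them passed.

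H3K27ac around gene ends is a readout that the rule fixed only in part. It was tested as the length covered within 10 kb of either gene end, for 13076 genes, of which 36 (0.275%) passed. Primed regions inside such a window hold no H3K27ac peak by the rule. The lower quartile of the distance from primed regions to the nearest gene end was 7.145 kb, so many lie inside one. Neighbouring genes can share windows, so the same peaks can count for several genes. Of the 7460 tested genes with a primed region within 50 kb, 19 (0.255%) passed, 12 higher and 7 lower in Tg, where 0.115% of all genes were higher and 0.161% lower, so the share near primed regions was close to that of all genes. At unadjusted p under 0.05 there were 960 (12.9%), against 12.6% of all genes. The count of 19 was 0 without WT replicate 1 and without WT replicate 2, 44 without Tg replicate 1 (15 higher, 29 lower) and 62 without Tg replicate 2 (17 higher, 45 lower), so most calls were then in the lower direction. It was also 0 with no normalization, with lists scaled to equal length or with 100 bp added in place of 500.

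Of the 9 primary granule genes 3 passed, Prtn3, its neighbour Elane and Mpo, all higher in Tg, and of the 18 mature granulocyte genes 2 passed, Mmp8 and Cd177, both lower in Tg. None of the primed regions near them passed, and Cd177 had 0 within 50 kb. Of all 13076 tested genes, 0.115% were higher and 0.161% lower in Tg, and no gene of the other lists passed. The lists were chosen with earlier results of these data known, so these counts are a description and not a test. The windows of Prtn3 and Elane overlap, so the same H3K27ac peaks counted for both and these are not separate calls. At Mmp8, a neutrophil collagenase, H3K27ac covered 1399 and 2302 bp in Tg and 8993 and 9927 bp in WT, and its 1 primed region was covered by H3K4me1 over 0.239 and 1.03 kb in Tg and 0.324 and 1.31 kb in WT. At Prtn3, a granule protease, H3K27ac covered 7650 and 8427 bp in Tg and 3368 and 3017 bp in WT (log2 change 1.48 ± 0.13, limma adjusted p = 0.0445). Its 4 primed regions, which its neighbours Elane and Cfd share in part, were covered by H3K4me1 over 4.73 and 5.96 kb in Tg and 2.99 and 5.56 kb in WT, with overlapping groups. The primed region shared by Mpo, the myeloperoxidase gene, and Lpo was covered over 3.04 and 3.85 kb in Tg and 0.562 and 3.72 kb in WT, so WT replicate 1 alone stood apart.

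Ube2o passed in H3K27ac, with 1056 and 1179 bp in Tg and 309 and 0 bp in WT (1.49 ± 0.14, adjusted p = 0.0445). Of its 3 primed regions within 50 kb, the one given above had less H3K4me1 in Tg without passing. The others were covered over 329 and 1362 bp in Tg and 660 and 1213 bp in WT, and over 562 and 777 bp in Tg and 323 and 543 bp in WT, the first of these with overlapping groups. Of the genes lower in Tg, Treml4, a receptor of the TREM family on myeloid cells, had 0 and 224 bp of H3K27ac in Tg and 3523 and 2747 bp in WT (−2.43 ± 0.13, adjusted p = 0.0265). Its 4 primed regions were covered by H3K4me1 over 2.84 and 3.82 kb in Tg and 1.63 and 3.05 kb in WT. Timm8a2 had 0 and 375 bp of H3K27ac in Tg and 3106 and 2087 bp in WT, and 2.31 and 2.25 kb of H3K4me1 at its 3 primed regions in Tg and 2.37 and 2.38 kb in WT. At the 19 genes, no primed region passed the H3K4me1 test.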

How the data were processed

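ChIP-seq peak lists of H3K4me1, H3K27ac and H3K4me3 from 12 libraries were used. Bowtie2 and SAMtools, MACS2, deepTools, FastQC and Trim Galore are named, with mm10 as the build, per the submitters' processing notes; versions, settings and any control are not given in the sources used here. The authors deposited, per peak, a score, a fold enrichment ratio, a −log10 p-value and a −log10 q-value. Read counts are not in these lists, so depth is unknown.

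Overlapping or touching H3K4me1 peaks were merged, and genes came from RefSeq for GRCm38.p6 (21883 protein-coding). Covered length was tested in limma 3.58.1 (lmFit, eBayes) on log2(bp + 500), quantile normalized, for regions or genes with a peak in at least 2 of 4 libraries, with Benjamini-Hochberg adjustment over all tested. The fit was tested on simulated data, and the interval code was compared with bedtools on a sample of the merged regions. No genome of this build was used, so motifs planned at summits were counted in RefSeq promoter windows. The members, lists and tests were chosen with earlier results of these data known. Named regions were the 6 strongest, the 4 widest, the 4 farthest from H3K27ac and from a gene, those at the rule's edges and the 4 largest changes each way; named genes were the 10 with the most primed regions, up to 4 per list and those that passed in H3K27ac. Some of these are left out of the text, and the regions of Gp9, Tmcc2 and Zeb2 given singly were chosen after their values were seen. Of the list genes, 2 (Azu1 and Tpsab1) had no match.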

Additional observations from a re-analysis of the deposited data

How the results depend on the processing

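The number of primed regions, 9746, depended on how a peak was called present. It was 4261 with −log10 q of at least 5 in every list, 2897 with that limit on H3K4me1 alone and 2108 when a peak had to cover 50% of the region. Leaving out a library gave 9828 to 16780, the highest without H3K4me1 WT replicate 1, and the other 4 settings, one of them added after seeing the data, gave 8164 to 12379. The ratio of covered length, primed over constant active, was 0.639 with strong peaks, 0.853 at 500 to 1500 bp and 0.479 to 0.576 with a library left out. The percentile difference was −12.3, −21.0 and −30.8 to −23.2 in the same order, and the share in genes 65.4%, 60.9% and 61.3% to 64.8%. These kept their direction throughout, but every setting classed regions by overlap with H3K27ac peaks, which wider regions have more room for.

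For H3K4me1 between genotypes the count of primed regions that passed was 2 among regions in all 4 libraries and 0 under the other settings, whichever library was left out. For H3K27ac near primed regions, 19 became 0 with no normalization, 0 with scaling, 0 with 100 bp added, 31 with 1000 bp added (15 higher, 16 lower) and 4 with no filter, and 0 to 62 with a library left out. Same-numbered libraries deviated together by a correlation of 0.20 in H3K4me1 and −0.20 in H3K27ac, so the numbers were not taken as pairs. With the replicate block the H3K27ac count was 1 and the H3K4me1 count 0, and with crossed pairs, tried after seeing the data, it was 5. Without normalization the median change of all genes in H3K27ac was −0.20. The lists above the share of all genes numbered 15, and 17 at 20 kb, 100 kb and with strong peaks. The cause of these differences was not tested. Depth is unknown, so a mark under the peak threshold cannot be told from an absent one.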
